A study of Mus musculus with 12 samples.

Results

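The secreted proteins of the acute phase were followed through 9 genes, *Lcn2*, *Hp*, *Saa1*, *Saa2*, *Saa3*, *Orm1*, *Cp*, *Itih4* and *Serpina3n*. They were found by their gene symbol among the spots that are not controls, which gave 10 probes for 9 genes, *Saa1* having 2, out of 27962 gene names and 41174 distinct probes on the array. A probe was tested where some treatment group had it well above background on each of its 3 arrays, which held for 7 of the 10 probes and for 22751 probes of the whole array. The 7 belonged to 7 genes, and the probes of *Saa2* and *Serpina3n* and the second probe of *Saa1* were not tested. The cells were C57MG, an established line labelled as mouse mammary epithelium, whose response to the secreted proteins Wnt3a and R-spondin 2 (Rspo2) was the question of the study. All groups had been moved to medium without serum before treatment and were harvested after 24 h. One group received recombinant human Rspo2 at 100 ng/ml, another recombinant mouse Wnt3a at 100 ng/ml, a further group both proteins at these doses, and the control group bovine serum albumin (BSA), the carrier. Each of the 4 groups had 3 biological replicates, each with its own single-color array, so that 12 arrays were used. This is a single cell line treated with added proteins, and the counts of cells behind each RNA sample were not used here.

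The acute phase response is the rapid change in secreted proteins that follows infection or injury. It is best known in the liver, where interleukin 6 acts through STAT3, and interleukin 1 and tumor necrosis factor act through NF-κB and C/EBP proteins, to raise the transcription of these genes. Epithelia and fibroblasts also produce several of them, and in the mammary gland *Lcn2*, *Saa3* and *Orm1* are known from involution and inflammation. Wnt proteins stabilize β-catenin, and R-spondins strengthen that signal by keeping Wnt receptors at the cell surface.

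Signals are given first as the intensity of the spot after background subtraction, in scanner units, and then as differences of log2 signal after subtraction of each array's 75th percentile. A gene was called changed where it differed by 2-fold or more and its adjusted p from limma was below 0.05. The p-values measure the spread between these cultures. Beside a fold given as a bound ("at least"), the adjusted p is that of the fitted difference and does not test the bound. The share of probes well above background was 51.3% to 64.2% per array, highest on BSA replicate 1 and next on replicate 1 of Rspo2 plus Wnt3a (61.8%). The arrays lay on 3 slides of 4. The BSA arrays shared slide 1 with Rspo2 replicate 1, the other Rspo2 arrays shared slide 2 with Wnt3a replicates 1 and 2, and the last Wnt3a array shared slide 3 with those of Rspo2 plus Wnt3a. The Wnt3a and the combined groups therefore never shared a slide with BSA. The treatment was visible in the β-catenin target *Axin2*, which was above background only in the cells given both proteins (at least 9.39-fold higher than with BSA, adjusted p = 1.14e-05). Of 6 epithelial markers, *Krt14*, *Krt8* and *Krt5* were detected, while *Cdh1*, the defining adhesion protein of epithelia, was on no array above background and *Epcam* on 2. All 6 fibroblast markers were detected, among them *Vim* and *Col1a1* on every array. The epithelial label thus showed in keratins alone among these markers.

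The promoters of the members are shown for *Lcn2* and *Saa3*, which fell together, and for *Saa1*. *Saa1* is a close relative of *Saa3* whose tested probe did not fall, while its second probe was above background on 1 array only. Each promoter runs 5′ to 3′ from 250 bases before to 50 bases after a transcript start (RefSeq, GRCm38.p6, all 3 on the minus strand). For *Lcn2* that start is the annotated edge of the gene, whereas it lies 201 bases inside the edge for *Saa1* and 3939 bases inside for *Saa3*, so these windows describe 1 start of each gene. Capitals mark matches to the letters searched on both strands, TTNNGNAA for C/EBP, CTTTGNT for TCF/LEF, GGANNTTCC for the core of an NF-κB site and TTCNNNGAA for STAT.
*Lcn2*, chr2:32387690-32387989: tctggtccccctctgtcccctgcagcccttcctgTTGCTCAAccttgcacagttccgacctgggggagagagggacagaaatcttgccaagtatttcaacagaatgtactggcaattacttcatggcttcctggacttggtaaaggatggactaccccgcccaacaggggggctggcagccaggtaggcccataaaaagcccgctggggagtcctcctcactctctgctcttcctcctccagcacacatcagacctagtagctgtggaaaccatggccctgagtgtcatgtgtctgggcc
*Saa3*, chr7:46715627-46715926: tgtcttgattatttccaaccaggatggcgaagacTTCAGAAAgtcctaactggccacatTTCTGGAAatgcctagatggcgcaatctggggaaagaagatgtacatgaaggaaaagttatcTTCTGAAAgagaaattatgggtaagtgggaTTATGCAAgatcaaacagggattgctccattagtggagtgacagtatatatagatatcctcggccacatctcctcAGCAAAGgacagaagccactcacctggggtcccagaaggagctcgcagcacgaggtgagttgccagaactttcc
*Saa1*, chr7:46742931-46743230: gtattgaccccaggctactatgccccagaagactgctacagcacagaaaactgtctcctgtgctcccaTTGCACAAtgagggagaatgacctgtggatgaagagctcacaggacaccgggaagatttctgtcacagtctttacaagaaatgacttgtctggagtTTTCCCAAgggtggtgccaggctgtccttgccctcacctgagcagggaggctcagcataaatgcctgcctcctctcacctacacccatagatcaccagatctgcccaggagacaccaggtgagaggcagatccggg
*Lcn2* had 1 match to the C/EBP letters, 216 bases before the start. *Saa3* had 4 of them, beginning 216, 191, 129 and 99 bases before the start, and 1 match to the TCF/LEF letters at 24 bases. *Saa1* had 2 C/EBP matches, at 182 and 86 bases, and no other. None of the windows of the members with an entry held the NF-κB letters, and only that of *Itih4* held the STAT letters. Of all 32851 promoter windows, 40.7% held the C/EBP letters, 18.6% those for TCF/LEF, 8.3% those for STAT and 4.26% those for NF-κB. A match is a description of the sequence and no evidence of binding, and the matches did not separate the members that fell from *Saa1*. *Hp* and *Orm1* had no entry.

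*Lcn2* encodes lipocalin 2, which withholds iron from bacteria by binding their siderophores. Its probe lies in the gene at chromosome 2, 32384637 to 32387739 (the annotated gene, GRCm38.p6). It gave 3269, 4696 and 4311 units on the BSA arrays, 194, 149 and 167 with Rspo2, 55.7, 47.2 and 57.3 with Wnt3a, and 27.2, 21.8 and 22.9 with both proteins. The groups formed 4 separate steps with no overlap, and with both proteins only replicate 1 was still well above background. The signal was 20.2-fold lower than with BSA after Rspo2 (log2 change -4.34 ± 0.13 standard error, adjusted p = 7.16e-08), 59.3-fold lower after Wnt3a (-5.89 ± 0.13, adjusted p = 2.74e-09) and 158-fold lower after both (-7.31 ± 0.13, adjusted p = 1.37e-10). *Lcn2* ranked lowest of the 22751 tested probes in each of these comparisons. On slide 1, which held both groups, the change with Rspo2 was -4.33, resting on 1 Rspo2 array. A fit that included slide gave -4.33, -5.95 and -7.51, all still called. With this layout it chains the differences within slides, the last through 1 Wnt3a array, and is no separate check. Normexp background correction, which adds an offset of 50 units to every spot and so compresses low signals, gave -3.22, -4.58 and -5.27, and normexp with a single background level per array, an alternative added after the data were seen, gave -3.83, -4.68 and -5.33, all called.

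*Hp* encodes haptoglobin, which captures hemoglobin released from red cells, on chromosome 8 (109575128 to 109579172). Its signal was 416, 615 and 601 units with BSA, 58.4, 119 and 39.9 with Rspo2, 7.35, 5.74 and 13.2 with Wnt3a, and 20.6, 8.09 and 5.12 with both. All Rspo2 arrays were below all BSA arrays but still above background, whereas no Wnt3a array was, and with both proteins only replicate 1 was. *Hp* was 6.96-fold lower with Rspo2 (log2 change -2.80 ± 0.53, adjusted p = 0.0143), at least 20.8-fold lower with Wnt3a (adjusted p = 0.000117) and 52.7-fold lower by the fitted means with both (adjusted p = 2.41e-05). The last value rests on 2 arrays without a signal above background. The call for Rspo2 was lost when slide was included (log2 change -3.15, adjusted p = 0.131) and without Rspo2 replicate 3 (-2.53, adjusted p = 0.0582). These folds and bounds hold on the scale of the processed signal. With normexp the log2 changes were -1.44 (adjusted p = 0.487), -2.78 and -2.97, and with a single background level -1.88, -2.75 and -3.00, all called but the first.

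**Figure D1:**
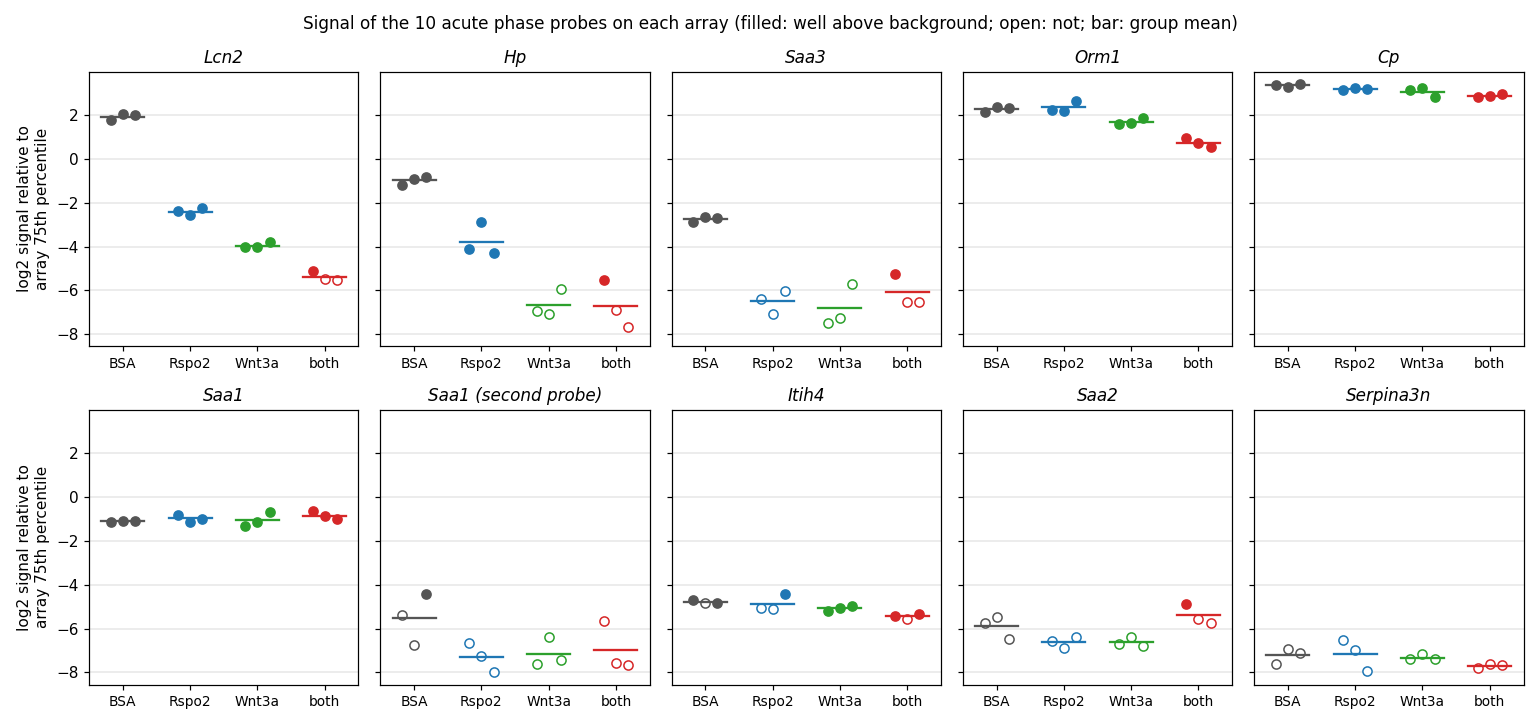
Signal of each acute phase probe on the 12 arrays, as log2 intensity minus each array's 75th percentile (vertical axis), by treatment (horizontal axis, "both" being Rspo2 plus Wnt3a). Points are arrays, filled where well above background and open where not, and bars are means of 3 arrays. *Lcn2* falls in steps from 1.94 with BSA to -5.37 with both proteins, *Hp* and *Saa3* fall to open points, *Orm1* is lower with Wnt3a and lowest with both, and *Cp* and the tested *Saa1* probe stay near their BSA level.

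The serum amyloid A proteins, lipoprotein-bound and chemotactic, are encoded by neighboring genes on chromosome 7, *Saa3* at 46711998 to 46719615, *Saa1* at 46740497 to 46743181 and *Saa2* at 46751833 to 46754313. *Saa3*, the form made outside the liver, gave 130, 183 and 169 units with BSA, 12.1, 6.54 and 12.2 with Rspo2, 4.97, 5.06 and 15.2 with Wnt3a, and 24.6, 10.4 and 11.6 with both. Every treated array was below every BSA array, and of the 9 treated arrays only replicate 1 of Rspo2 plus Wnt3a was above background. *Saa3* was at least 5.16-fold lower with Rspo2 (adjusted p = 0.00283) and at least 6.20-fold lower with Wnt3a (adjusted p = 0.000353), and 10.3-fold lower by the fitted means with both (adjusted p = 0.000375). It passed the filter on dim probes through the BSA arrays alone, so it could enter the test only by being high there. The 3 treated groups could not be ordered. With normexp none of the changes was called (-0.47, -1.48 and -1.49, adjusted p = 0.805, 0.271 and 0.203), while with a single background level they were -1.22, -1.26 and -1.30, all called and smaller than the bounds given.

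*Saa1* and *Saa2*, the hepatic forms, are close copies of each other, and their probes may share targets. The brighter *Saa1* probe gave 430, 548 and 513 units with BSA, 586, 399 and 403 with Rspo2, 361, 349 and 509 with Wnt3a, and 601, 530 and 523 with both. These ranges overlapped before scaling, and none of the changes passed the test. Rspo2 gave a log2 change of 0.12 (95% interval -0.23 to 0.48), Wnt3a one of 0.05 (interval -0.30 to 0.41) and the combination one of 0.26 (interval -0.10 to 0.61). The second *Saa1* probe gave 3.14 to 51.0 units and was above background on BSA replicate 3 alone. The 2 probes of this gene thus disagreed on whether its transcript was present. *Saa2* gave 7.29 to 31.9 units and was above background only on replicate 1 of Rspo2 plus Wnt3a.

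*Orm1* encodes α-1-acid glycoprotein, a plasma carrier of lipids and drugs, on chromosome 4 (63344556 to 63348163). It gave 4265, 5847 and 5351 units with BSA, 4856, 4062 and 4891 with Rspo2, 2676, 2385 and 2924 with Wnt3a, and 1813, 1590 and 1557 with both, all well above background. The Rspo2 arrays overlapped with BSA, the Wnt3a arrays were below both, and those with both proteins were lowest. The change with Rspo2 did not pass (log2 change 0.09, 95% interval -0.22 to 0.39, adjusted p = 0.687). With Wnt3a it was -0.59 ± 0.14 (adjusted p = 0.00888), short of 2-fold and without a passing p when slide was included (-0.84, adjusted p = 0.183), and with both proteins *Orm1* was 2.89-fold lower (-1.53 ± 0.14, adjusted p = 1.86e-05). Between Wnt3a and the combination the step was -0.94 (adjusted p = 0.00283), and -1.12 on slide 3, resting on 1 Wnt3a array.

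*Cp* encodes ceruloplasmin, the copper-carrying ferroxidase of plasma, on chromosome 3 (19956933 to 20009750). It gave 9917, 11295 and 11460 units with BSA, 9012, 8229 and 7164 with Rspo2, 8004, 7208 and 5795 with Wnt3a, and 6622, 7120 and 8311 with both. All groups stayed bright, and no change reached 2-fold. Rspo2 gave a log2 change of -0.18 (adjusted p = 0.213), Wnt3a one of -0.29 (adjusted p = 0.0447) and the combination one of -0.47 (adjusted p = 0.0037), but the last was -0.19 (adjusted p = 0.659) when slide was included. *Itih4*, whose product belongs to the inter-α-trypsin inhibitor family, gave 20.2 to 40.4 units and was above background on 8 arrays. Its log2 change with both proteins was -0.65 ± 0.16 (adjusted p = 0.00975), but the p did not pass when slide was included (-1.10, adjusted p = 0.197) or with a single background level (-0.16, adjusted p = 0.187). *Serpina3n*, a protease inhibitor gene that is induced in many inflamed tissues, gave 3.20 to 11.01 units and was above background on no array.

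**Figure D2:**
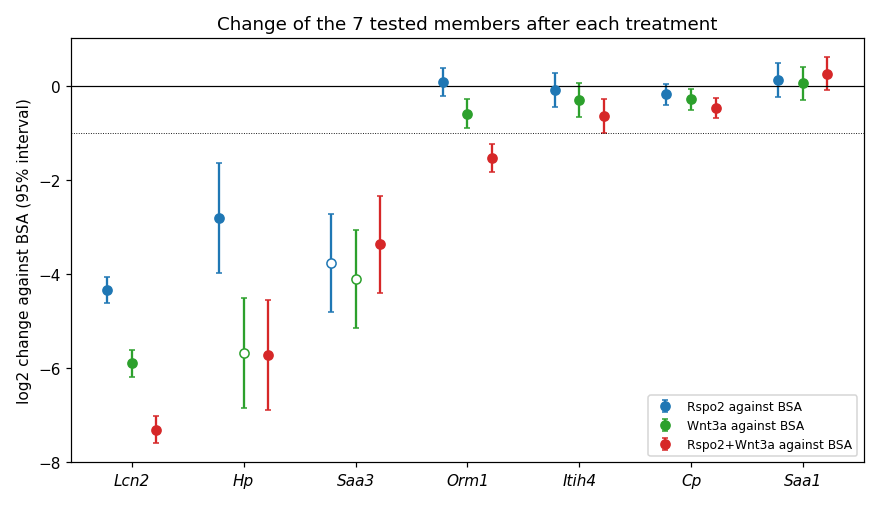
Log2 change against BSA (vertical axis) of the 7 tested members (horizontal axis) with Rspo2, Wnt3a or both, as points with 95% intervals from limma. Open points mark groups with no array above background, for which the text gives bounds, and the dotted line marks a 2-fold decrease. *Lcn2*, *Hp* and *Saa3* lie below the line with all treatments and *Orm1* with both proteins only.

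Counted by gene, *Lcn2*, *Hp* and *Saa3*, 3 of the 9 members, fell at least 2-fold with Rspo2, where 0.62% of all tested probes were called lower and 0.101% higher. The same 3 fell with Wnt3a, where 2.11% of probes were called lower and 0.404% higher. With both proteins *Orm1* joined them, 4 of 9, beside 3.79% of probes called lower and 1.28% higher, and no member was called higher in these comparisons. Of the 7 tested probes, 6 were below every BSA array with both proteins, beside 23.1% of all tested probes, and the tested *Saa1* probe was above them all. These comparisons share the BSA arrays and are not independent of each other. Of the 9 members 2 were not tested, and *Saa3* could enter the test only by being high with BSA. The members were chosen with earlier results of these data known, so their counts beside the shares of all probes are a description and no test.

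The treated groups were then compared with each other. Wnt3a lowered *Lcn2* more than Rspo2 did, by a log2 difference of -1.55 ± 0.13 (adjusted p = 0.000472), and by -1.62 on slide 2, which held both groups. *Hp* was at least 2.997-fold lower with Wnt3a than with Rspo2 (adjusted p = 0.0265), but that call was lost when slide was included (adjusted p = 0.0596). With a single background level per array the *Hp* difference was -0.87 (adjusted p = 0.116), not called and smaller than the bound given. It was called in 8 of 15 alternatives and in 6 of the 12 fits without 1 array. *Lcn2* and *Hp* were 2 of the 9 members, where 0.101% of probes were called lower. The *Orm1* difference was -0.67 (adjusted p = 0.039), short of 2-fold. On adding Rspo2 to Wnt3a only *Lcn2* was called, 1 of 9 beside 0.334% of probes called lower. Its further log2 change was -1.42 ± 0.13 (adjusted p = 0.000134), and -1.55 on slide 3, resting on 1 Wnt3a array. In the cells given both proteins, 2 of the 3 arrays were not above background for *Lcn2*. Both *Lcn2* differences were under 2-fold when the background was modeled with a single level per array (-0.86, adjusted p = 0.002, and -0.65, adjusted p = 0.00346). For *Hp* and *Saa3* both groups were at or near background, so that a further decrease was not detectable.

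The interaction asks whether the change with both proteins differs from the sum of the changes with each alone on the log2 scale. It was called for 4 members, beside 1.93% of all tested probes, 1.27% in the positive and 0.651% in the negative direction. For *Lcn2* the single changes add to -10.23 against -7.31 observed, an interaction of 2.92 ± 0.18 (adjusted p = 3.52e-05). For *Hp* the interaction was 2.75 ± 0.75 (adjusted p = 0.0466), and for *Saa3* 4.50 ± 0.66 (adjusted p = 0.00435). In *Hp* and *Saa3* at least 1 single treatment had already brought the signal to background, and in all 3 genes 2 of the 3 arrays with both proteins were there, so a sum of the single decreases could not have been measured. For *Lcn2* that sum is a 1201-fold decrease from a BSA mean of 4092 units, while the lowest signals above background with both proteins were 19.0 to 23.3. The interactions of *Lcn2*, *Hp* and *Saa3* are therefore no measure of a different effect of Rspo2. *Orm1* had the opposite sign and was measured above background on every array. Its single changes add to -0.50 against -1.53 observed, an interaction of -1.03 ± 0.19 (adjusted p = 0.0142). When slide was included, the *Lcn2* interaction was still called (2.78, adjusted p = 0.00657), under the same limit of background. *Orm1* was then at -1.09 (adjusted p = 0.118), *Saa3* at 3.30 (adjusted p = 0.0915) and *Hp* at 2.39 (adjusted p = 0.305).

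**Figure D3:**
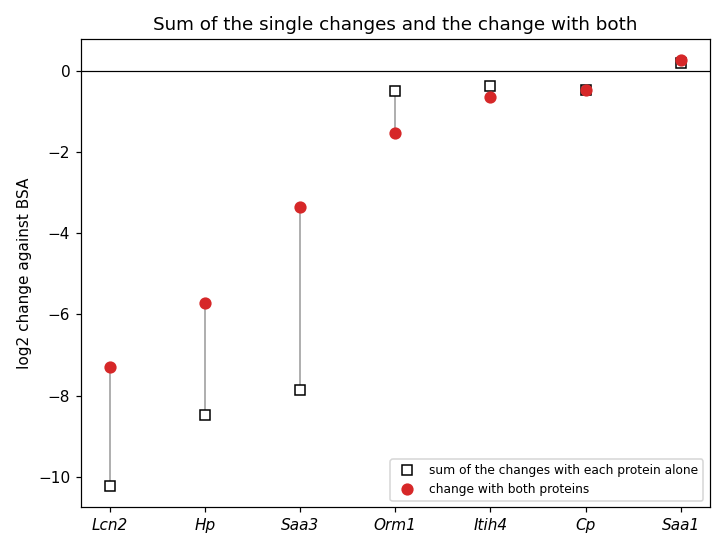
For the 7 tested members (horizontal axis), the sum of the log2 changes found for the single treatments (open squares) and the log2 change with both proteins (filled circles), each against BSA (vertical axis). The circle lies above the square for *Lcn2*, *Hp* and *Saa3*, which had reached background or nearly so, and below it for *Orm1*, at -1.53 against -0.50.

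Other acute phase genes were taken from a list of 35, of which 34 had a probe and 18 were detected. With both proteins 4 of them fell and 1 rose, beside 3.79% and 1.28% of all tested probes, and the median log2 change of the detected genes was -0.22, beside 0.04 for all tested probes. *C3*, the central complement component, fell with every treatment, in the same order as *Lcn2*. Its log2 change was -2.20 after Rspo2 (adjusted p = 9.83e-05), -3.11 after Wnt3a (adjusted p = 3.88e-06) and -3.98 after the combination (adjusted p = 7.61e-08). The *C3* interaction was called and positive, at 1.32 (adjusted p = 0.00856), with its probe above background on all 12 arrays. The combined decrease of *C3* was thus smaller than the sum of the single ones. *Serping1*, the C1 inhibitor gene, fell after Wnt3a (-1.31, adjusted p = 9.97e-05) and after the combination (-1.71, adjusted p = 3.2e-06). *Lbp*, which encodes the carrier of bacterial lipopolysaccharide, was at 0.02 with Rspo2 and -0.77 with Wnt3a and fell with both (-1.67, adjusted p = 6.13e-07). *Il1rn*, which encodes the interleukin 1 receptor antagonist, was the gene that rose (1.77, adjusted p = 1.11e-05).

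*Orm2* and *Orm3* are paralogs of *Orm1*, so their probes may detect the same transcripts. *Orm2* was at a log2 change of 0.22 after Rspo2, -0.39 after Wnt3a and -1.38 after the combination (adjusted p = 4.24e-05), and *Orm3* of 0.22, -0.14 and -0.99, the last just short of 2-fold (adjusted p = 0.000452). Their interactions were called, at -1.21 (adjusted p = 0.00741) and -1.06 (adjusted p = 0.0147), with the sign of *Orm1*. In the BSA samples the iron storage genes *Fth1* and *Ftl1* and the metallothionein gene *Mt2* had the brightest probes of those not called with both proteins, at log2 changes of -0.01, 0.23 and -0.12. *Mt1*, another metallothionein gene, was brighter than *Mt2* with either protein alone, was at -0.19 with both, and had a called interaction of -1.04 (adjusted p = 0.0234).

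**Figure D4:**
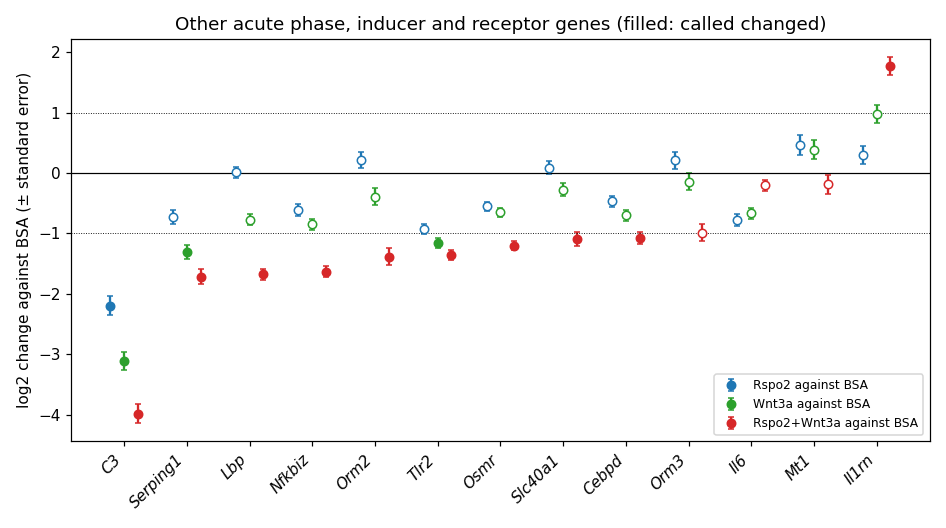
Log2 change against BSA (vertical axis, with standard errors) of the 13 detected genes of the lists of other acute phase, inducer and receptor genes that were called in a comparison with BSA or in the interaction, ordered by the change with both proteins. Filled points are called changed and dotted lines mark 2-fold. *C3* falls with all treatments, *Orm2*, *Orm3*, *Lbp* and *Slc40a1* are near or above 0 with Rspo2 and lowest with both, and *Il1rn* rises.

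The inducers of the acute phase and their signal transduction were a list of 28 genes, 27 with a probe and 22 detected. None was called with either protein alone, and 3 fell with both, beside the background of 3.79%, with a median log2 change of -0.44 against 0.04 for all tested probes. *Nfkbiz*, the atypical NF-κB regulator that *Lcn2* transcription is known to need, fell by 1.63 (adjusted p = 8.93e-07). *Osmr*, a receptor subunit for oncostatin M, fell by 1.20 (adjusted p = 1.36e-06) and *Cebpd*, a C/EBP factor of the acute phase, by 1.08 (adjusted p = 1.73e-05). *Cebpb*, *Nfkbia* and *Jak1* were the brightest not called in the BSA samples, at -0.86, -0.95 and -0.37. The cytokine genes *Il1a*, *Il1b* and *Tnf* were above background on no array. *Il6* was above background on all 12, where Rspo2 gave a log2 change of -0.78, Wnt3a one of -0.66 and the combination one of -0.21, and its interaction was called (1.24, adjusted p = 0.000821).

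Receptors and partners of the members were a list of 10 genes with 5 detected. *Tlr2*, a receptor for serum amyloid A as well as for bacterial lipoproteins, fell after Wnt3a (log2 change -1.16, adjusted p = 2.18e-05) and after the combination (-1.35, adjusted p = 1.12e-06). *Slc40a1*, which encodes the iron exporter that works with ceruloplasmin, was at 0.09 with Rspo2 and fell with both (-1.09, adjusted p = 6.03e-05). *Slc22a17* and *Lrp2*, genes of the lipocalin 2 receptors, were not detected in any group. *Hmox1*, *Scarb1* and *Tlr4* were detected and not called, at log2 changes with both of 0.02, 0.00 and -0.48.

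Markers of other cells that make these proteins were examined in the same samples. Of 6 neutrophil markers 2 were detected, and their summed intensity ran from 758 to 839 units on the BSA arrays, from 529 to 578 after Rspo2, from 479 to 560 after Wnt3a and from 420 to 493 after the combination. Within that sum *Camp* fell with all treatments. Only 1 of the 2 detected markers was called lower in each comparison with BSA, and the other was not called. Of all tested probes, 0.62% were called lower with Rspo2, 2.11% with Wnt3a and 3.79% with both. *S100a9* was above background on no array and *Mpo* and *Elane* on 3 and 1. Of 6 macrophage markers 3 were detected, with sums of 1679 to 1925 units with BSA and 1656 to 1869 with both, and *Ptprc* and *Adgre1* were each above background on 1 array. Of 6 adipocyte markers only *Fabp4*, a fatty acid carrier, was detected. The list's sum ran from 563 to 595 units on the BSA arrays, from 608 to 745 after Rspo2, from 434 to 474 after Wnt3a and from 290 to 368 after the combination, without overlap before scaling. After scaling, *Fabp4* had a log2 change of 0.41 with Rspo2 and 0.06 with Wnt3a, neither called. It was at -0.81 with both proteins (adjusted p = 0.000822) and had a called interaction of -1.28 (adjusted p = 0.00387), with the sign of *Orm1*. *Plin1*, *Cfd*, *Lep* and *Cidec* were above background on no array. None of the 5 hepatocyte markers with a probe was detected, *Alb* being above background on no array. The fibroblast sum ran from 241940 to 293030 units on the BSA arrays, from 180270 to 241840 after Rspo2, from 200360 to 220060 after Wnt3a and from 229230 to 257850 after the combination, and the epithelial sum 9622 to 12180 with BSA and 23589 to 24268 with both, most of it *Krt14*, which rose (log2 change 1.24, adjusted p = 8.29e-06), while *Krt8* fell (-1.15, adjusted p = 0.000366). The part of these shifts in the results was not tested. In such cultures fewer cells of a type and less RNA per cell cannot be told apart.

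Among detected probes with a RefSeq accession, the genes whose log2 signal over the 12 arrays was most like that of *Lcn2* included *C3* (Pearson r = 0.987) and *Wdr38* (0.986). For *Hp* they were *Hnrnpdl* (0.973), *Serping1* (0.958) and *Glg1* (0.954), and for *Saa3* they were *Tardbp* (0.963), *Mcmbp* (0.954) and *Nfkbie* (0.953). Likeness here is of shape and not of size, since *Hnrnpdl* had a log2 change of -0.73 with both proteins where *Hp* had -5.72. The 12 points share 4 treatments and 3 slides, so these values describe the arrays and carry no test. In *Lcn2*, *Hp*, *Saa3* and *Saa2* the same array, replicate 1 of Rspo2 plus Wnt3a, was the only one of its group above background. Without it the log2 changes with both proteins were -7.43 for *Lcn2*, -6.31 for *Hp* and -3.79 for *Saa3*, all still called.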

How the data were processed

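RNA of 12 samples of C57MG cells, in 4 groups of 3, was hybridized to single-color arrays. The authors deposited intensity values, from which the scanner software (Agilent Feature Extraction 9.5.3.1) had subtracted background, with flags for each spot. They also deposited a table of ratio values, each signal divided by the 75th percentile of its array, which served as an alternative. Here 1327 of 520548 spot values marked as uneven or outliers were left out, and the rest were averaged by probe, taken to log2 and scaled by subtracting each array's 75th percentile. No member spot was marked or saturated. A probe was tested if well above background on all arrays of a group, with a value on at least 2 arrays of each. Groups were compared by limma 3.58.1 (R 4.3.3) over all 12 arrays. P-values were adjusted over 22751 probes by the Benjamini-Hochberg method in each of 6 comparisons. Each gene was counted through its brightest probe. Where no array of a group was above background, the fold is a bound against the lowest signals above background, and the number of arrays limits the precision. The fit was checked on simulated data. The members, lists and tests were chosen with earlier results of these data known. Named were all members and, of each list, up to 5 called genes with the largest change with both proteins and up to 3 of the brightest not called; *Il6*, *Orm3*, *Mt1*, *Fabp4* and undetected genes were added after their values were seen. Likeness was restricted to probes with a RefSeq accession, and 1 gene that this rule names is not reported here. Figures were drawn with matplotlib 3.10.9. Alternatives comprised other background corrections, scalings, filters, tests, slide and replicate terms, and the leaving out of each array.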

Additional observations from a re-analysis of the deposited data

Results flagged for a closer look

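The interaction term of limma, which compares the change with Rspo2 in cells without and with Wnt3a, was called for 4 members on the log2 scale. It was 2.92 for *Lcn2*, 2.75 for *Hp*, 4.5 for *Saa3* and -1.03 for *Orm1*. For *Hp* and *Saa3* no Wnt3a array and 1 array of the combination was above background, so a further decrease on adding Rspo2 could not be seen and the term is no measure of a different effect. For *Lcn2*, Rspo2 alone changed the signal by -4.34 and its addition to Wnt3a by -1.42, with 2 of the 3 arrays of the combination not above background. A decrease as large as with Rspo2 alone could not have been measured there, so this term is no measure of a different effect either. For *Orm1* these changes were 0.09 and -0.94, and every array was well above background. When slide was included only the *Lcn2* interaction was still called. The groups of 3 arrays were too small for a test of single outlying samples.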

How the results depend on the processing

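Beside leaving out each of the 12 arrays, 16 alternatives were run, and no called change of a member turned its direction. The counts of members called (3 with Rspo2, 3 with Wnt3a and 4 with both against BSA, 2 for Wnt3a against Rspo2, 1 on adding Rspo2 to Wnt3a and 4 for the interaction) are given below in this order where any differed. The counts of all probes called follow in parentheses. In the main fit they were 164, 573, 1155, 46, 170 and 438. Normexp gave 1, 2, 3, 0, 0 and 0 (3, 35, 330, 0, 15 and 3 of all probes), with *Saa3* lost in all comparisons with BSA. On BSA replicate 1 and Rspo2 replicate 2, 4 and 10 spots had a local background over 500 units, and the 5th percentile of the corrected signal lay at 283 and 990 there, against 60.4 to 69.5 on the others. Normexp with a single background level per array, added after the data were seen, gave 3, 3, 4, 0, 0 and 4 (21, 81, 415, 5, 56 and 139). No filter on dim probes gave 2, 3, 4, 1, 1 and 2 (65, 826, 1540, 29, 146 and 189), with *Hp* lost for Rspo2 (adjusted p = 0.0672). The looser detection flag gave 3, 3, 4, 1, 1 and 4 (227, 1049, 1570, 42, 187 and 423), with *Saa2* in place of *Hp* in the interaction. Quantile normalization (120, 411, 1054, 43, 173 and 340) and the 75th percentile over probes above background on all arrays (205, 802, 1380, 53, 171 and 504) each gave 3, 3, 4, 2, 1 and 3, the *Orm1* interaction being under 2-fold (-0.87 and -0.92). Restricting the test to probes above background on all 12 arrays, which leaves out *Lcn2*, *Hp* and *Saa3* by construction, gave 0, 0, 1 for *Orm1*, 0, 0 and 1 (49, 285, 788, 24, 95 and 247). The methods' t-test after adjustment gave 1, 2, 2, 0, 0 and 1 (2, 165, 692, 0, 11 and 65), with *Saa3* lost throughout (adjusted p = 0.0927 with Wnt3a). Dropping the fold requirement gave 3, 5, 6, 3, 2 and 4 (3817, 7161, 8916, 335, 971 and 2024). Including slide gave 2, 3, 4, 1, 2 and 1 (65, 146, 500, 49, 162 and 151). Where no cause is given it was not tested.

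Leaving out single arrays gave 2 to 3 with Rspo2, 3 with Wnt3a, 4 with both, 1 to 2 for Wnt3a against Rspo2, 1 to 2 on adding Rspo2 and 2 to 4 for the interaction. The lower count with Rspo2 came without Rspo2 replicate 3, the 2 for the interaction without BSA replicate 1 or without Rspo2 replicate 3, and the 2 on adding Rspo2 without replicate 1 of the combination, where *Orm1* joined at -1.04. The *Hp* interaction was called in 3 of these 12 fits (2.16 to 3.24) and the *Orm1* interaction in 8 (-1.13 to -0.90). No pairing by number was seen between same-numbered arrays (correlations -0.41 to 0.27, over 0.1 in 4 of 18 pairs), and 3 of 12 arrays correlated best with their own number. With 3 arrays per group and groups tied to slides, a modest pairing could have gone unseen. With the replicate block 1 member was called for Wnt3a against Rspo2 and 3 for the interaction, beside 37 and 324 of all probes. *Hp* was lost in both (adjusted p = 0.0682 and 0.0901).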

Other observations

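Proteins whose plasma level falls in the acute phase were mostly not detected. Of 8 such genes only *Trf*, which encodes transferrin, and *Serpinc1*, which encodes antithrombin, were detected, and neither was called in any of the 6 comparisons. With both proteins their log2 changes were -0.06 and 0.43. *Alb*, *Ttr*, *Rbp4*, *Apoa1*, *Ahsg* and *Serpina6* were above background on no array.

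Of 9 feedback genes of Wnt/β-catenin signaling 6 were detected. None was called with Rspo2 alone, *Tcf7* and *Ccnd1* rose with Wnt3a (log2 changes 1.07 and 1.08), 2 genes where 0.404% of all tested probes were called higher, and 5 rose with both proteins, where 1.28% were, *Axin2*, *Tcf7* (2.57), *Ccnd1* (1.70), *Znrf3* (1.22) and *Notum* (1.08). *Axin2* was above background only with both proteins, so a small rise with Rspo2 could not have been seen in it. In the same Rspo2 samples *Lcn2* fell by 4.34 on the log2 scale, and its relation to these genes was not tested.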
